A study of Mus musculus with 3 samples.

Results

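The 10 genes described here encode transcription factors that specify the neural crest or drive the epithelial to mesenchymal transition (EMT) through which crest cells leave the neural tube. They were taken by gene name (GENCODE M21, the mouse GRCm38 annotation) from a table of 55401 gene identifiers. Of the 10, 5 are neural crest specifiers (*Foxd3*, *Sox10*, *Tfap2a*, *Tfap2b* and *Ets1*) and 5 are EMT factors (*Snai1*, *Snai2*, *Twist1*, *Zeb1* and *Zeb2*). All 10 were found, and all 10 passed the filter of 10 counts on average, as 17115 genes did.

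The data are RNA-Seq counts from the maxillary process, the paired facial swelling that gives rise to the upper jaw, dissected from mouse embryos at E10.5. The genotype of all 3 libraries was *Wnt1cre; Rosa26Dlx2/-* (OE). In these embryos Cre recombinase under the *Wnt1* driver switches on a Flag-tagged *Dlx2* transgene at the *Rosa26* locus. The driver is active in neural crest cells and their descendants. Whole prominences were dissected, so the libraries also hold surface epithelium, vessels and other cells that do not come from the crest. The wild-type libraries of the experiment were not analysed here, so every comparison below is between OE libraries, and none of them measures an effect of *Dlx2*. The libraries came from 3 independent RNA samples, here called replicates 1, 2 and 3 in the order of their accessions; how many embryos went into each is not given in the sources used here. With no separate litters or animals named, each p-value below measures only how far these libraries differ beyond counting error.

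Between 35351031 and 40057435 counts fell on genes in each library, so a gene at 0 counts may still be present at up to 0.0777 to 0.0843 counts per 1000000 counts on genes (CPM, scaled by the TMM method). *Dlx2* itself was at 235, 201 and 183 CPM in replicates 1, 2 and 3. Replicate 1 stood apart from the others. *Xist*, the RNA of the inactive X chromosome, was at 671 CPM in replicate 1 and at 0.309 and 0.557 CPM in the others, while 4 Y-linked genes summed to 0, 146 and 109 CPM, so the sex of the embryos cannot be told apart from whatever else is particular to replicate 1. Its neuron markers summed to 273 CPM against 24.3 and 35.9, and its eye and forebrain markers to 25.03 against 158 and 146. Replicate 3 differed by gene length: relative to the mean of the other libraries, the median log2 ratio in it was 0.36 for genes with at most 2000 exonic bases and fell to -0.51 for genes with more than 8000. Replicate 1 had the opposite slope, with medians of -0.27 and 0.34 in these classes. Counts of the 10 genes that rest on either library are given below with and without it. Mean CPM values are given without replicate 1 for *Sox10*, *Foxd3*, *Tfap2b* and *Zeb2*, and without replicate 3 for *Ets1* and *Zeb1*.

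As background, neural crest cells arise at the border of the neural plate, where TFAP2, Zic, Pax and Msx factors act before the specifiers *Foxd3*, *Sox10*, *Ets1* and the Snail factors come on. Snail and Zeb proteins bind E-boxes, short DNA sites found in the promoters of epithelial adhesion genes, and repress them together with CtBP and histone deacetylase complexes, while *Twist1* binds E-boxes as a dimer with E proteins. In the face, most crest descendants become mesenchyme, which keeps *Twist1* and Tfap2 factors, whereas *Sox10* and *Foxd3* persist in the crest cells that make glia, neurons and pigment cells.

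The 250 bases before the annotated start are shown for 4 of the factors, as the stretch of DNA from which these genes are read, chosen because they hold or lack the motifs searched. All come from the RefSeq promoter windows of GRCm38.p6. *Twist1*, the factor with the highest level, lies at chr12:33957421-33957670 on the plus strand, and *Snai1* at chr2:167537945-167538194 on the plus strand. *Tfap2a* lies at chr13:40734921-40735170 on the minus strand, and *Tfap2b* at chr1:19211804-19212053 on the plus strand. These last windows precede RefSeq starts that lie inside the wider GENCODE genes but outside their exons, and the *Tfap2a* window shares 242 bases with an exon of *Gm26688*, an antisense transcript. Capitals mark the Snail and Zeb E-box (CAGGTG, or CACCTG on the other strand) and homeodomain cores of the kind DLX proteins bind (TAATTA, and TAATTG or CAATTA on the other strand).
Twist1: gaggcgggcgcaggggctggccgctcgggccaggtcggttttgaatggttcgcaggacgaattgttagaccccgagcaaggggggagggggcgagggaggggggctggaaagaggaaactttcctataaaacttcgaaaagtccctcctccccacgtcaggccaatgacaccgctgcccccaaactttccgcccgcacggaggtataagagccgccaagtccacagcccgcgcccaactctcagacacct
Snai1: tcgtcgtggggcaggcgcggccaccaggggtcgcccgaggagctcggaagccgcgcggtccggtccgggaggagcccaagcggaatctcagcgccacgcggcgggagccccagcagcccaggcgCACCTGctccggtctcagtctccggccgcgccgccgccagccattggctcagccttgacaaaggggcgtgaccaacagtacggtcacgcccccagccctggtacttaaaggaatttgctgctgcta
Tfap2a: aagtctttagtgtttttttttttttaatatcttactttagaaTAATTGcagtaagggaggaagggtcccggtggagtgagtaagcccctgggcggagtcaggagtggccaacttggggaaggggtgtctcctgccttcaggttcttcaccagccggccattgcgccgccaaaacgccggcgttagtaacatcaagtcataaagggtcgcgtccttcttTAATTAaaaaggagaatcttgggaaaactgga
Tfap2b: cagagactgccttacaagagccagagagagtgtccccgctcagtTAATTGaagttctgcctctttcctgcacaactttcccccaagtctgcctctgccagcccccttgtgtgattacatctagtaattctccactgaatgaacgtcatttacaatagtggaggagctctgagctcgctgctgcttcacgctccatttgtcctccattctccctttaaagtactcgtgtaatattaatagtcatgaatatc

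Promoter windows of 300 bases (250 before and 50 after the start) were found for 6 of the 10 factors, 10 windows in all, and none for *Sox10*, *Ets1*, *Snai2* and *Zeb1*. The E-box lay in 1 of these 10 windows, that of *Snai1*, 126 bases before its start, where 20.2% of all 32851 windows hold it. TAATTG or its reverse lay in 3 of the 10 (8% of all windows), at -208 in *Tfap2a*, at -206 and -1 in *Tfap2b*, and at -180 in *Zeb2*; the site at -1 in *Tfap2b* runs past the end of the stretch printed. TAATTA lay in 1 of the 10 (5.29% of all windows), at -32 in *Tfap2a*. CACGTG, another E-box, lay in 1 of the 10 (7.15% of all windows), at -217 in *Foxd3*. None of the 4 motifs was in the *Twist1* window. With so few windows these counts describe the sequences, and no binding was measured here.

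The 10 factors differed in how far their CPM spread between libraries, as counted. *Twist1*, *Snai1*, *Snai2* and *Tfap2a* stayed within 1.46-fold between the highest and lowest library, on the scale of CPM + 1 that every fold below uses. *Sox10*, *Foxd3*, *Tfap2b*, *Zeb2*, *Ets1* and *Zeb1* differed by at least 2-fold, which 18% of all genes tested did. Replicate 1 was the highest library for 7 of the 10, the 5 specifiers with *Zeb1* and *Zeb2*, as it was for 39.6% of all genes tested. In 9 of the 10 genes every library reached 1 CPM, the exception being *Foxd3* at 0.899 CPM in replicate 2; 75.3% of all genes tested reached that level in every library. Part of this grouping changed once the dependence on transcript length and GC content over all genes was removed: the log2 ratios to the other libraries were then 0.39, 0.20 and -0.49 for *Snai1*, and 0.24, 0.14 and -0.45 for *Zeb1*.

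**Figure D1:**
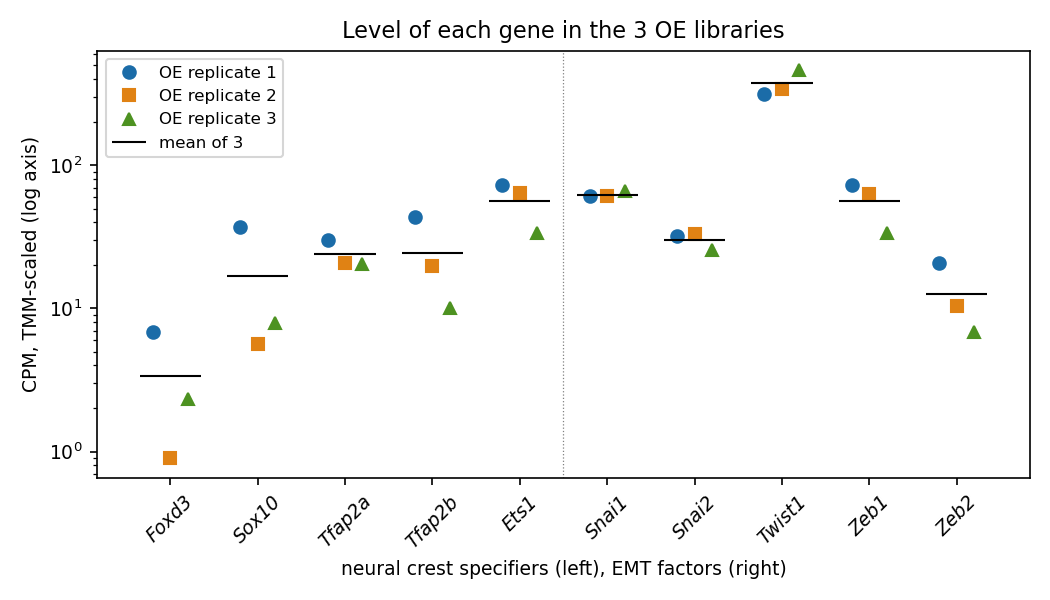
Level of each of the 10 genes in CPM (log axis) in the 3 OE libraries, with a bar at the mean, specifiers on the left and EMT factors on the right. Replicate 1 (circles) lies above the others for all 5 specifiers, by the widest gap for *Sox10* (37.2 CPM against 5.65 and 7.94), while the 3 points of *Snai1* lie between 60.7 and 65.9 CPM.

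Among the specifiers, *Sox10* had the widest span on the scale of CPM + 1. The SRY-related factor *Sox10* maintains crest progenitors and drives glial and melanocyte fates (ENSMUSG00000033006, chr15:79154908-79165240, minus strand). Its counts were 1435, 201 and 299 in replicates 1, 2 and 3, or 37.2, 5.65 and 7.94 CPM. Replicate 1 was thus 4.90-fold above the mean of the others, and the others were close to each other but still apart beyond counting error (chi-square test, adjusted p = 0.000325). The span of 5.74-fold placed *Sox10* at percentile 99.5 of all genes tested. Its mean was 16.9 ± 17.6 CPM (SD, n = 3) with replicate 1 and 6.61 CPM without it.

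*Foxd3* moved with it. This forkhead repressor holds crest cells in a multipotent state and keeps them from becoming pigment cells (ENSMUSG00000067261, chr4:99656299-99658622, plus strand, a single exon). It had the fewest counts of the 10, with 263, 32 and 88 counts, or 6.81, 0.899 and 2.34 CPM. The 95% exact Poisson intervals, which cover counting error only since reads copied by PCR are not independent molecules, were 6.02 to 7.69, 0.615 to 1.27 and 1.87 to 2.88 CPM and did not overlap. *Foxd3* thus shared with *Sox10* its high value in replicate 1 and its lowest value in replicate 2, and there were 5.46, 6.28 and 3.40 *Sox10* counts to each *Foxd3* count. Its mean was 3.35 ± 3.09 CPM (SD, n = 3) and fell to 1.57 CPM without replicate 1.

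The TFAP2 factors are border and crest regulators that also act in the surface ectoderm, where they bind DNA as dimers. *Tfap2a* (ENSMUSG00000021359, chr13:40715302-40738376, minus strand) was at 30.3, 20.9 and 20.4 CPM, a mean of 23.9 ± 5.59 (SD, n = 3). Replicate 1 was highest, by 1.45-fold over the others, and replicates 2 and 3 were not separated at this depth: their 95% Poisson intervals were 19.4 to 22.4 and 19.0 to 21.9 CPM (chi-square test, adjusted p = 0.727). In the annotation 14.6% of its exonic bases lie opposite exons of antisense genes, and whether the counting used strand is not given in the sources used here. The 3 antisense genes, *Gm26688*, *Gm47061* and *Gm47067*, held at most 18 counts each in any library, against at least 743 for *Tfap2a*. Reads that could not be given to 1 gene were set apart as ambiguous (6.11%, 6.1% and 6.96% of counted reads). Reads on shared exons may be among them, so these counts do not measure the overlap.

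*Tfap2b*, the paralogue with a role in facial mesenchyme and sympathetic neurons (ENSMUSG00000025927, chr1:19208914-19238576, plus strand), was at 43.9, 19.8 and 10.1 CPM. It had no such flat pair: each library differed from each other library, replicate 1 lay 2.82-fold above the mean of the others and replicate 3 lay 2.96-fold below. The ratio of *Tfap2b* to *Tfap2a* per exonic length was accordingly 1.12, 0.734 and 0.383 in replicates 1, 2 and 3. *Tfap2c*, another paralogue, kept a ratio to *Tfap2a* of 2.30, 2.35 and 2.40 per length. The mean of *Tfap2b* was 24.6 ± 17.4 CPM (SD, n = 3) and 14.6 CPM without replicate 1.

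*Ets1*, an ETS-domain activator of the cranial crest that is also made in vessel walls (ENSMUSG00000032035, chr9:32636221-32757820, plus strand), was at 72.9, 63.9 and 33.4 CPM. Replicate 3 was low, by 2.01-fold, and the others were near each other. The mean of *Ets1* was 56.7 ± 20.7 CPM (SD, n = 3) and 70.5 CPM without replicate 3. Its transcripts cover 8476 exonic bases, which puts it in the length class whose median fell to -0.51 in replicate 3. Once the smooth dependence on transcript length and GC content over all genes was removed, its log2 ratio in replicate 3 went from -1.01 to -0.58. Endothelial markers summed to 412, 479 and 458 CPM, but they did not move as 1 set: *Kdr* (77.6, 84.1 and 37.3 CPM) and *Cdh5* (77.7, 87.9 and 49.1 CPM) were lowest in replicate 3 as *Ets1* was, while *Egfl7* (29.2, 44.1 and 83.2 CPM) and *Cldn5* (25.5, 28.7 and 52.2 CPM) were highest there. The part of other cell types in its level was not tested, and in bulk tissue fewer cells and less RNA per cell cannot be told apart, here or for any gene below.

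Among the EMT factors, *Snai1* had the smallest span as counted. This zinc finger repressor of *Cdh1* and other adhesion genes (ENSMUSG00000042821, chr2:167538195-167542814, plus strand) was at 60.7, 61.2 and 65.9 CPM, a mean of 62.6 ± 2.89 (SD, n = 3). Its span of 1.08-fold was at percentile 5.57 of all genes tested. Replicates 1 and 2 were not separated, with 95% Poisson intervals of 58.3 to 63.2 and 58.6 to 63.8 CPM (chi-square test, adjusted p = 0.869), and over the 3 libraries the small excess of replicate 3 passed the threshold (adjusted p = 0.00886). Scaled by total counts alone, *Snai1* no longer differed beyond counting noise. Its direction in replicate 3 also turned with the length and GC trend removed: the log2 ratio was 0.11 as counted and -0.49 without the trend, then the farthest from 0 of the 5 EMT factors in that library.

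*Snai2*, the Snail paralogue that marks migrating crest and persists in facial mesenchyme (ENSMUSG00000022676, chr16:14705852-14709385, plus strand), was at 32.2, 33.2 and 25.6 CPM. Replicates 1 and 2 again were not separated (95% Poisson intervals 30.5 to 34.1 and 31.3 to 35.1 CPM; chi-square test, adjusted p = 0.587), and replicate 3 was 1.27-fold below them. The mean was 30.3 ± 4.15 CPM (SD, n = 3). Per length, there were 2.35, 2.30 and 3.22 *Snai1* transcripts for each of *Snai2*. Another relative, *Snai3*, had 17, 2 and 0 counts.

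*Twist1*, the bHLH factor required for crest survival and the mesenchymal state of the face (ENSMUSG00000035799, chr12:33957671-33959829, plus strand), was the most abundant of the 10 per length. It was at 317, 342 and 464 CPM in replicates 1, 2 and 3, a mean of 374 ± 78.4 (SD, n = 3). Replicate 3 was highest, by 1.41-fold, as counted. Its 1628 exonic bases put *Twist1* in the short class whose median rose in replicate 3, and with the length and GC trend removed its log2 ratios were 0.11, 0.05 and -0.10, so the direction turned. *Twist2*, its close relative, was at 6.59 CPM, and the *Twist1* to *Twist2* ratio per length ran from 82.3 to 165.

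*Zeb1* and *Zeb2* are large zinc finger and homeodomain repressors, *Zeb1* mostly of epithelial genes in mesenchyme and *Zeb2* also in migrating crest and nerve. *Zeb1* (ENSMUSG00000024238, chr18:5591860-5775467, plus strand) was at 72.8, 63.1 and 33.8 CPM. Its log2 ratios to the mean of the other libraries were 0.58, 0.24 and -0.99, close to those of *Ets1* (0.57, 0.26 and -1.01), and the ratio in replicate 3 likewise went from -0.99 to -0.45 with the trend removed. *Zeb1* has 10266 exonic bases, and its mean was 56.6 ± 20.3 CPM (SD, n = 3) and 70.1 CPM without replicate 3. *Zeb2* (ENSMUSG00000026872, chr2:44983632-45117395, minus strand) was at 20.7, 10.4 and 6.82 CPM.

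*Zeb2* was unlike *Zeb1* in that replicate 1 stood out, 2.26-fold above the others, with replicate 2 nearer to replicate 3. It has the longest transcripts of the 10, with 19942 exonic bases, and its log2 ratio in replicate 1 went from 1.18 to 0.64 with the trend removed. The *Zeb1* to *Zeb2* ratio per length was 6.82, 11.8 and 9.61. The mean of *Zeb2* was 12.7 ± 7.22 CPM (SD, n = 3) and 8.39 CPM without replicate 1. The opposite strand genes *Gm10125* (23 to 29 counts) and *Zeb2os* (1 to 7 counts) overlap *Zeb1* and *Zeb2*, which had at least 1272 and 257 counts. Here too reads on shared exons may have been counted for neither gene.

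Levels of different genes can be compared only per length, and for this the counts were divided by the merged exonic bases and scaled to sum to 1000000 in each library (TPM). *Twist1* stood first at 705 ± 30.1 TPM (SD, n = 3), and its share of the sum of the 10 averaged 73.2% over the 3 libraries. *Snai1* followed at 121 ± 19.0 TPM and *Snai2* at 47.9 ± 14.5 TPM. The ranges of these 3 genes over the libraries did not overlap. Per length, 5.20 to 7.002 *Twist1* transcripts were counted for each of *Snai1*.

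Below *Snai2* came *Ets1* (22.0 ± 11.3 TPM), *Sox10* (19.3 ± 22.7), *Zeb1* (18.1 ± 9.22), *Tfap2a* (15.7 ± 6.60), *Tfap2b* (13.3 ± 11.3), *Foxd3* (4.91 ± 5.28) and *Zeb2* (2.14 ± 1.57; all SD, n = 3). The range of each of these overlapped those of its neighbours in the order, from *Snai2* downward. Within every library, though, *Snai2* stood above *Ets1*, *Ets1* above *Zeb1* and *Zeb1* above *Tfap2b* by exonic bases. With coding bases the mean of *Ets1* (49.0 TPM) was above that of *Snai2* (41.9 TPM). Likewise the mean of *Tfap2b* (20.2 TPM) was then above that of *Zeb1* (18.6 TPM). *Foxd3* and *Zeb2* were not in a fixed order: *Zeb2* had the lowest mean, but in replicate 2 *Foxd3* (1.24 TPM) stood below *Zeb2* (1.67 TPM), and with coding bases in place of exonic bases *Foxd3* was last. Without replicate 1 the means of *Sox10* and *Foxd3* were 6.22 and 1.88 TPM. Only in replicate 1 did *Sox10*, at 45.5 TPM, approach the 59.6 TPM of *Snai2*. Without replicate 1, 4 of the 10 genes took another place in the order, and with coding bases in place of exonic bases 6 did.

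**Figure D2:**
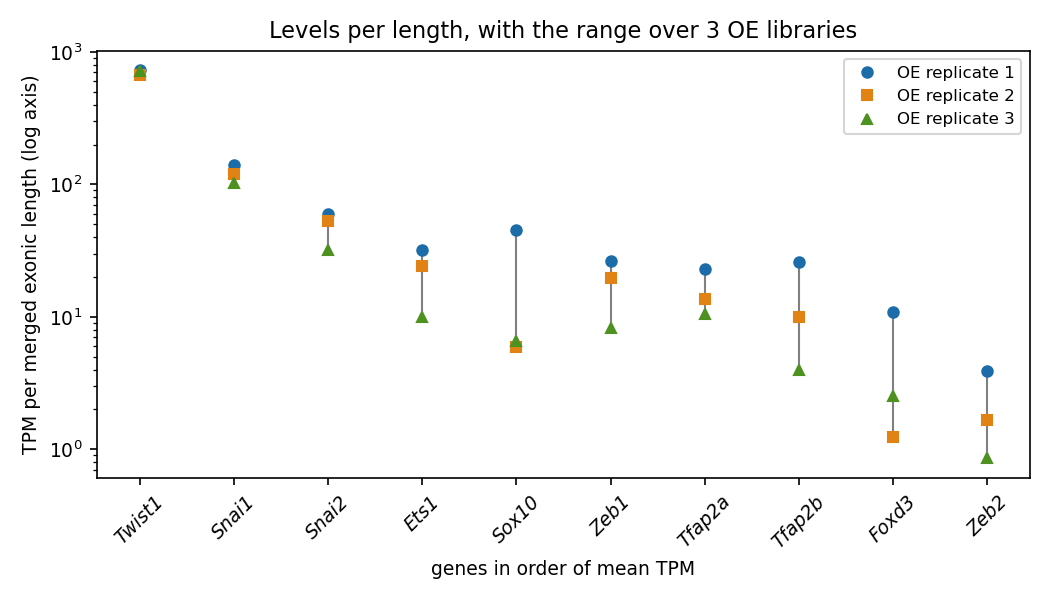
TPM per merged exonic length (log axis) of the 10 genes in order of their mean, with 1 point per OE library and a line over the range. *Twist1*, *Snai1* and *Snai2* have ranges that do not overlap (means 705, 121 and 47.9 TPM), and from *Snai2* downward each range overlaps the next.

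Beyond counting noise the libraries differed in all 10 genes (chi-square test across the 3 libraries, adjusted p at most 0.00886), where 81.5% of all genes tested did. At this depth the share is close to the background. By pairs, 8 of the 10 differed between replicates 1 and 2 (48.2% of all genes), all 10 between replicates 1 and 3 (78% of all genes) and 9 between replicates 2 and 3 (70.9% of all genes). The exceptions were *Snai1* and *Snai2* in the first pair and *Tfap2a* in the last.

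The size of the differences singled out some of the 10 genes more than the calls did. *Sox10*, *Foxd3*, *Tfap2b* and *Zeb2* were at least 2-fold higher in replicate 1 than the mean of the others (4 of 10, against 1.62% of all genes), and none of the 10 was 2-fold lower there (2.76% of all genes). No member was 2-fold higher in replicate 2 (0.117% of all genes), and *Sox10* and *Foxd3* were 2-fold lower in it (0.695% of all genes). In replicate 3 none was 2-fold higher (5.75% of all genes), and *Sox10*, *Tfap2b*, *Ets1* and *Zeb2* were 2-fold lower (5.59% of all genes).

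As medians of the log2 ratio to the other libraries, the 5 specifiers stood at 1.49, -0.43 and -1.01 in replicates 1, 2 and 3, the 5 EMT factors at 0.13, -0.05 and -0.34, and all genes tested at -0.0017, -0.008 and -0.03. These counts turned on single libraries. Without replicate 1, 0 of the 10 were 2-fold apart, and without replicate 3, 3 were (*Sox10*, *Foxd3* and *Tfap2b*). With the length and GC trend removed, 3 were 2-fold higher in replicate 1, *Zeb2* having dropped out, and in replicate 3 *Foxd3*, *Sox10* and *Tfap2b* were the 3 that were 2-fold lower. The biological coefficient of variation, edgeR's estimate of the spread between libraries beyond counting error, had a median of 0.327 over the 10 genes and 0.339 over all genes tested. Without replicate 3 these medians were 0.163 and 0.209. With all 3 libraries it ran from 0.218 for *Snai1* (percentile 2.93) to 0.664 for *Sox10* (percentile 96.3) and 0.677 for *Foxd3* (percentile 96.6). The estimate for each gene is drawn toward those of other genes, so it is not the gene's own spread. The SD of the CPM was 4.61% of the mean for *Snai1* and 104% for *Sox10*.

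**Figure D3:**
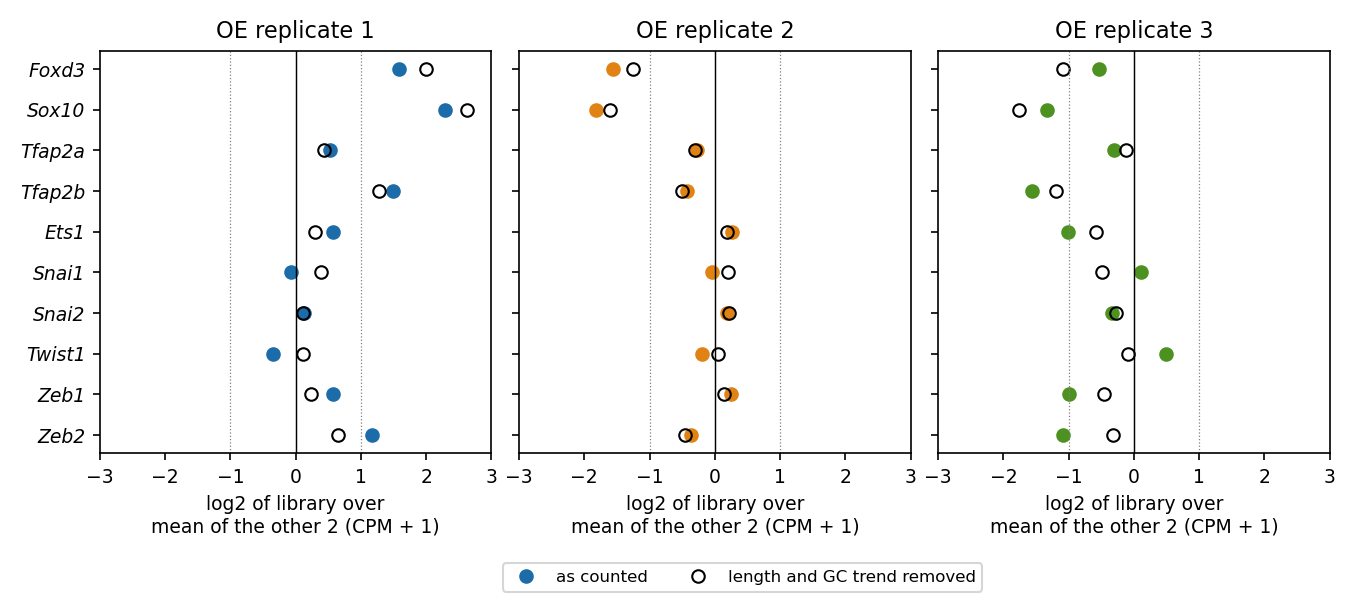
Log2 of CPM + 1 in each OE library over the mean of the other 2, for the 10 genes, as counted (filled) and with the length and GC trend removed (open); dotted lines mark 2-fold. *Sox10* and *Foxd3* stay beyond 2-fold above in replicate 1 either way (2.29 and 1.58 as counted), while *Twist1* in replicate 3 goes from 0.49 to -0.10 and *Snai1* from 0.11 to -0.49.

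Markers of cell types that could carry these factors are given beside them. The 9 neuron markers, such as *Tubb3* (115, 7.64 and 16.9 CPM), *Stmn2*, *Isl1* and *Neurod1*, were all at least 2-fold higher in replicate 1 (1.62% of all genes tested). That is the library where *Sox10* and *Foxd3* were highest. Glia and Schwann precursor markers summed to 96.6, 55.9 and 78.4 CPM, and 4 of the 11 tested were 2-fold higher in replicate 1 (1.62% of all genes tested). Among them were *Erbb3* (30.5, 9.44 and 5.95 CPM), *Ednrb* (5.10 ± 4.66 CPM; SD, n = 3) and *Fabp7* (5.96, 0.618 and 2.15 CPM). *Ngfr*, the neurotrophin receptor of crest and nerve, went the other way at 26.3, 32.5 and 57.4 CPM, and made up most of the list's sum in replicates 2 and 3. *S100b*, a marker of mature glia, was near the floor at 0, 0 and 1 counts.

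Pigment cell markers, the other lineage in which *Sox10* acts, summed to 39.3, 72.2 and 188 CPM, and their lowest library was the one where *Sox10* was highest. *Kit*, which made up most of the sum in replicate 1, went the other way (32.5, 33.2 and 21.6 CPM). Most of the excess in replicate 3 was *Pmel* (0.363, 5.98 and 71.8 CPM) and *Trpm1* (4.33, 25.6 and 64.5 CPM), which the retinal pigment epithelium also makes, and the eye and forebrain markers were likewise low in replicate 1 (25.03, 158 and 146 CPM). Cranial mesenchyme markers, a list that includes *Twist1* and *Tfap2b*, summed to 2312, 2460 and 3086 CPM. Most of the rise in replicate 3 was *Barx1* (332, 409 and 928 CPM), while *Prrx1* was lowest there (629, 582 and 419 CPM). Of the 14 listed, 6 were highest in replicate 3 and 5 in replicate 1. Macrophage markers summed to 32.6, 38.0 and 43.0 CPM and myogenic markers to 83.6, 45.7 and 51.1 CPM. The part of any of these cell types in the levels of the 10 factors was not tested.

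**Figure D4:**
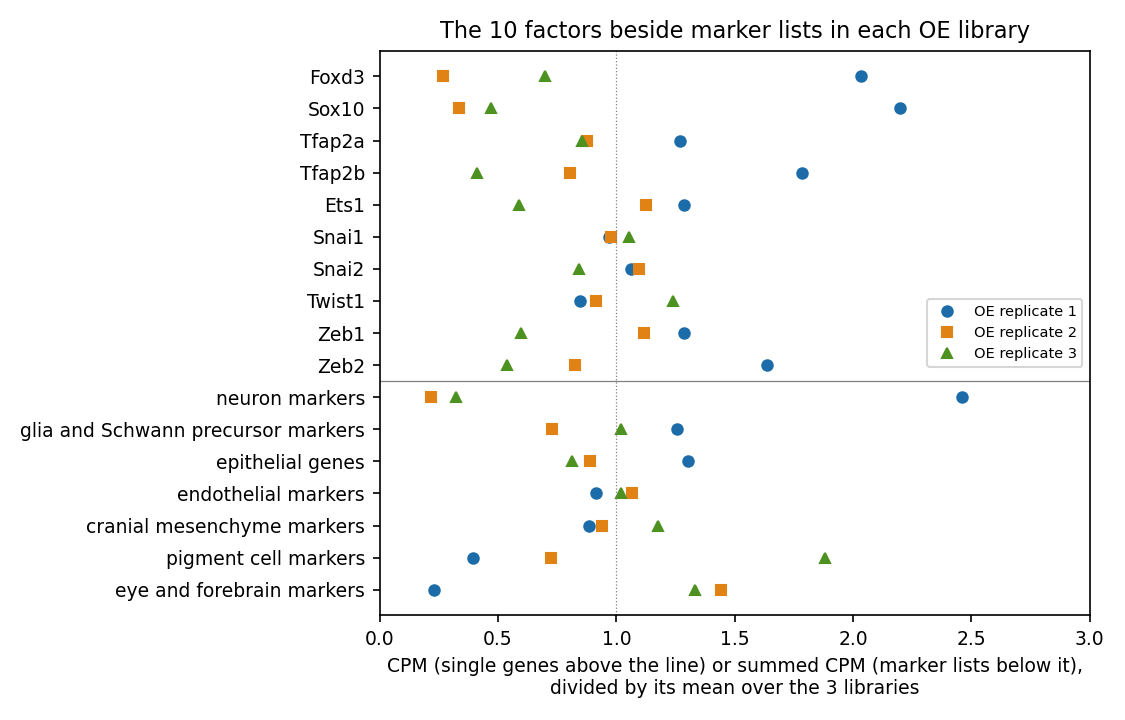
CPM of the 10 genes (above the line) and summed CPM of 7 marker lists (below it) in each OE library, each divided by its mean over the 3 libraries. Replicate 1 (circles) is the highest point for *Sox10*, *Foxd3*, *Tfap2b*, *Zeb2* and the neuron markers (273 CPM against 24.3 and 35.9) and the lowest for the pigment cell and the eye and forebrain markers.

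Genes that work with the 10 were measured too. Partners and inhibitors of *Twist1* included *Tcf3*, the E protein that pairs with it (665, 780 and 985 CPM), *Id3* and *Id1*, which block such pairing (means of 274 and 172 CPM), and *Tcf12*, another E protein (329, 294 and 151 CPM). All 8 of the 9 listed that had enough counts differed beyond counting noise, as 81.5% of all genes tested did. Between the highest and lowest library, only *Tcf12* of these 8 was at least 2-fold apart (18% of all genes tested), and it has 15529 exonic bases. *Tcf3* was highest in replicate 3 as counted, as *Twist1* was.

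Corepressors through which Snail and Zeb proteins act were all present at 1 CPM or more in every library (15 of 15, against 75.3% of all genes tested). Only 1 of them, *Rcor1*, was at least 2-fold apart between the highest and lowest library (18% of all genes tested). *Ctbp1* was at 430 ± 24.2 CPM, the deacetylase gene *Hdac2* at 345 ± 10.6, *Rcor2* at 279 ± 49.4 and the demethylase gene *Kdm1a* at 249 ± 4.30 CPM (SD, n = 3). Of the 15, 14 differed beyond counting noise, *Kdm1a* being the exception, against 81.5% of all genes tested. For the TFAP2 factors, the coactivator genes *Ep300* and *Cited1* moved in opposite directions in replicate 3: *Ep300* was at 95.9, 77.3 and 32.6 CPM and *Cited1* at 28.5 CPM in replicate 3, with a log2 ratio of 1.31 to the others. *Kctd15*, which inhibits TFAP2 activity, was at 147 ± 7.69 CPM (SD, n = 3). Of the 8 genes listed, 6 differed beyond counting noise, against 81.5% of all genes tested. Between the highest and lowest library 4 were at least 2-fold apart (*Cited1*, *Cited2*, *Cited4* and *Ep300*), against 18% of all genes tested.

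Of the 16 genes listed for the neural plate border and premigratory crest, 14 differed beyond counting noise, against 81.5% of all genes tested. Those with the highest CPM, *Id3*, *Msx1*, *Mycn* and *Rhob*, stayed within 2-fold of the other libraries in each library. *Zic1*, which marks the border and the dorsal neural tube, was far lower in replicate 1 (1.61 CPM) than in the others (19.9 and 23.9 CPM). The high *Sox10* and *Foxd3* of replicate 1 thus stood beside low *Zic1*, and the list summed to 1137, 1100 and 1093 CPM.

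Epithelial genes, many of them known targets of Snail and Zeb repression, were measured in this tissue, which holds epithelium as well as mesenchyme. The 24 epithelial genes summed to 663, 452 and 413 CPM, and 19 of them were highest in replicate 1, against 39.6% of all genes tested. Those with the highest CPM were *Krt18* (86.8 ± 21.5 CPM), *Krt8* (63.9 ± 17.5), *Cldn6* (54.0 ± 15.9) and *Epcam* (47.6 ± 18.2; all SD, n = 3). *Cdh1*, the E-cadherin gene, was at 48.1, 32.5 and 13.4 CPM, and *Trp63*, *Esrp1* and *Grhl2* stood in the same order. The other 5 genes were highest in replicate 3, among them *Krt18* (86.7, 65.5 and 108 CPM), *Krt14*, *Cldn3* and *Krt5*. Of the 24 genes, 23 differed beyond counting noise (81.5% of all genes tested), 7 were at least 2-fold higher in replicate 1 (1.62%) and 7 were at least 2-fold lower in replicate 3 (5.59%).

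The mesenchymal list summed to 2453, 2443 and 2269 CPM. *Fn1*, *Col3a1*, *Vim* and *Vcan* were at 385, 372, 314 and 219.7 CPM on average, without regard to length. *S100a4* was at 0 in all 3 libraries. *Snai1* was not separated between replicates 1 and 2, where the epithelial sum was 663 and 452 CPM, while *Ets1*, *Zeb1* and *Cdh1* all had their lowest value in replicate 3.

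The E-box of Snail and Zeb proteins was searched for in the promoters of these epithelial genes. Since the list holds many known targets of these repressors, the shares below describe the list and are no independent evidence. For 3 of those with the highest CPM, 30 bases around each E-box before the start are shown, with the site in capitals, to place the sequence that the repressors recognise beside the levels above (RefSeq windows of GRCm38.p6).
Krt18 at -214, chr15:102027990-102028019, plus strand: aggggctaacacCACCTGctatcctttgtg
Cldn6 at -93, chr17:23679260-23679289, plus strand: gggaaacgcacgCAGGTGgctatcgccgca
Epcam at -187, chr17:87635780-87635809, plus strand: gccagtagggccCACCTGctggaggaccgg
Epcam at -19, chr17:87635948-87635977, plus strand: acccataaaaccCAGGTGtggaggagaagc

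Of the 19 windows found for 15 of the 24 epithelial genes, 16 held the E-box on either strand (84.2%), against 20.2% of all windows and 1 of 12 windows of mesenchymal genes (8.33%). By gene, 13 of the 15 held it, all but *Krt14* and *Ovol2*. Windows of a single gene can overlap, the median GC content was 59% in the epithelial windows and 52.7% in all windows, and the search was added after the data had been seen. The share was 63.2% with only the 250 bases before the start searched and 80% with the first window of each gene. A match in letters shows neither binding nor repression in these cells.

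**Figure D5:**
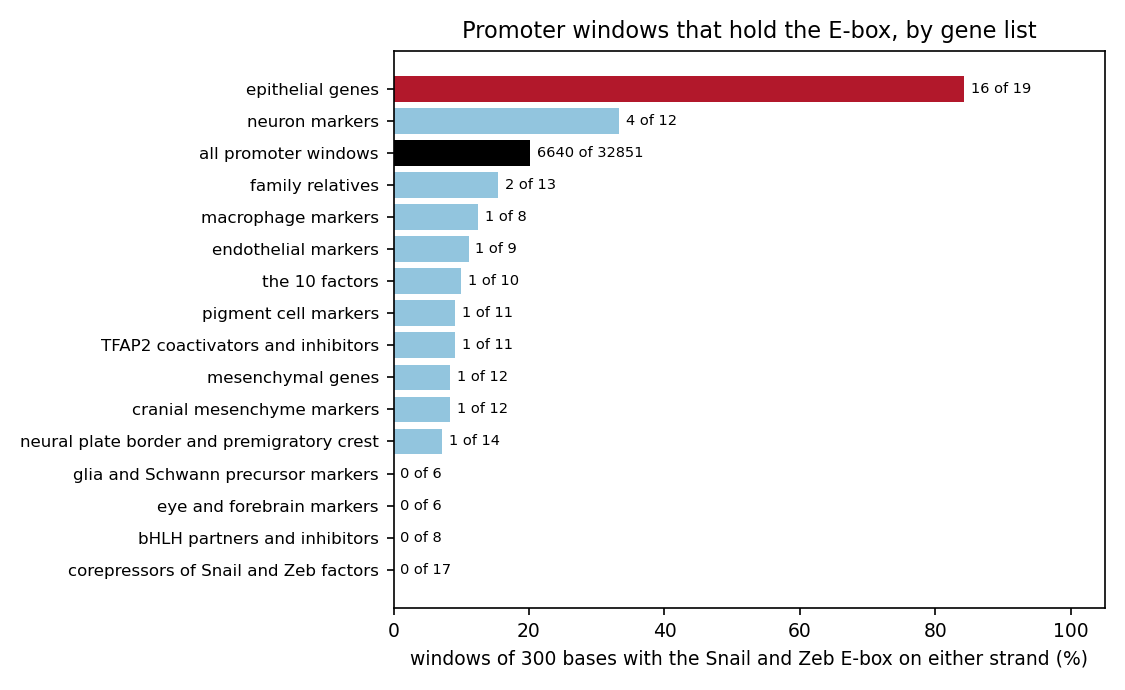
Share of 300-base RefSeq promoter windows that hold the Snail and Zeb E-box (CAGGTG on either strand), in percent from 0, for all windows, the 10 factors and each gene list with at least 6 windows; the numbers of windows stand at the bars. The epithelial genes have 16 of 19 windows with the site (84.2%), against 20.2% of all windows and 1 of 10 for the factors themselves.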

How the data were processed

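Total RNA of maxillary prominences was made into poly-A libraries with a kit that does not mark strand and sequenced as paired ends. Per the labels and the submitters' processing notes, the authors mapped reads to mm10 with STAR 2.7.3a, and HTSeq 0.12.4 is named there too. The authors deposited raw counts for each gene as whole numbers; the annotation release and strand setting of the counting are not given in the sources used here. Rows naming no gene held 14.2%, 15.7% and 16.4% of counted reads in replicates 1, 2 and 3 and were left out.

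Of the 55401 identifiers, 55141 matched GENCODE M21. CPM used edgeR 4.0.16 (R 4.3.3) with TMM. Each gene with a mean count of at least 10 was compared between libraries by a chi-square test of its counts against the scaled library sizes, with Benjamini-Hochberg adjustment over all 17115 such genes at 0.05. Folds used CPM + 1, a pseudocount of 1 CPM. The length and GC trend was a smooth term per library (mgcv 1.9.3). The chi-square test was tested on simulated data with known changes. With 1 genotype there was no contrast to fit, so no test between groups was made. Tried alternatives were other scalings (DESeq2 1.42.0 size factors, total counts), filters, pseudocounts and length definitions, and leaving out each library.

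The 10 members, the gene lists and the marker lists were chosen with earlier results of these data known. Named genes are all members, genes overlapping a member, *Dlx2*, and sex-linked genes as a check. Of each list, the 4 with the highest mean CPM and those at least 2-fold apart in 1 library could be named. The 5 protein-coding genes nearest in profile to *Sox10*, the member with the widest span on the scale of CPM + 1, are named too. *Ngfr*, *S100b*, *S100a4*, *Snai3*, *Rcor1*, *Cited2*, *Cited4*, the endothelial genes, *Krt5*, *Krt14*, *Cldn3* and the other relatives, and the genes of the E-box search, were named after their values were seen. Some items are not reported here.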

Additional observations from a re-analysis of the deposited data

How the results depend on the processing

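Over 22 results, 121 alternative values were computed, of which 112 kept within 1 SD of the mean or within 1.5 times the count and 9 moved. These results are counts, means, a coefficient of variation and an order, so none has a sign; among log2 ratios, those of *Twist1* and *Snai1* turned in all 3 libraries with the length and GC trend removed (in replicate 3, 0.49 to -0.10 and 0.11 to -0.49). The 50 alternative mean CPM values stayed within 1 SD, which for a mean of 2 of the 3 libraries is fixed in advance; without replicate 1 the mean CPM fell from 16.9 to 6.61 for *Sox10*, from 3.35 to 1.57 for *Foxd3*, from 24.6 to 14.6 for *Tfap2b* and from 12.7 to 8.39 for *Zeb2*. Leaving out each library in turn gave 0 to 6 members at least 2-fold apart (6 with all libraries, 0 without replicate 1 and 3 without replicate 3), 0 to 3 that were 2-fold lower in replicate 2 (2 with all) and 0 to 6 that were 2-fold lower in replicate 3 (4 with all), both counts being 0 without replicate 1. The median biological coefficient of variation ranged from 0.163 without replicate 3 to 0.396 without replicate 2 (0.327 with all). In the order per length, 3 genes changed place with the longest transcript, 6 with coding bases, 4 without replicate 1, 2 without replicate 2 and 0 without replicate 3. Members beyond counting noise were 9 with total counts, *Snai1* being lost, and 8 to 10 when a library was left out. With DESeq2 size factors 3 members and with total counts or a pseudocount of 0.1 CPM 5 members were 2-fold lower in replicate 3, the values of *Ets1* and *Zeb1* lying close to the limit. No paired analysis was possible because all 3 libraries belong to 1 group. *Foxd3*, at 32 counts in replicate 2, is the member most limited by depth.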

Other observations

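The gene whose profile over the 3 libraries lay nearest to that of *Sox10* was *Insm1*. Among 11279 protein-coding genes that averaged 100 counts or more, the 5 smallest Euclidean distances of centred log2 CPM were those of *Insm1* (0.258), a zinc finger gene of neuronal and endocrine progenitors, *Celsr3* (0.288), an adhesion receptor gene of growing axons, *Elavl4* (0.372), an RNA-binding protein gene of neurons, *Heyl* (0.389), a Notch target, and *Cntn2* (0.415), a cell adhesion gene of axons. *Insm1* was at 10.8, 1.52 and 1.78 CPM in replicates 1, 2 and 3, and *Heyl* at 13.3, 2.08 and 4.01 CPM. Of all candidates, 7 lay within 0.5 and 0 within 0.25. With 3 libraries, 1 of which stands apart, the likeness describes these libraries only.

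Of 15 relatives of the 10 factors, 11 had enough counts to be tested, and 2 of these, *Scrt2* and *Twist2*, were at least 2-fold apart between the highest and lowest library (18% of all genes tested). Replicate 1 was the highest library for 6 of the 11 (39.6% of all genes tested). *Scrt2* and *Scrt1*, Scratch genes of the Snail superfamily made in neurons, were at 2.23, 0.140 and 0.0265 CPM and at 1.61, 0.562 and 0.504 CPM. *Sox9*, which with *Sox8* and *Sox10* forms a subgroup of the Sox family, was at 114, 93.9 and 80.5 CPM, and per length there were 2.25, 12.3 and 7.48 *Sox9* transcripts for each of *Sox10*. *Sox10* stood at 3.42, 0.495 and 1.15 times *Sox8* per length. The ETS genes *Fli1* and *Ets2* were at 56.3 ± 7.62 and 44.98 ± 10.3 CPM (SD, n = 3), and the *Ets1* to *Ets2* ratio per length was 0.917, 0.928 and 0.675. *Tfap2d* was at 0 counts in all 3 libraries, which allows up to 0.0777 to 0.0843 CPM in each.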
